A study of Mus musculus with 12 samples.

Results

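A set of 10 genes around Phldb2 were followed in 2 mouse cell lines. Phldb2 encodes LL5β, a PH domain protein that lies at the inner face of the plasma membrane and holds the plus ends of microtubules at the cell cortex. The 10 genes were Phldb2, its paralog Phldb1, Clasp1, Clasp2, Erc1, Ppfia1, Ppfibp1, Kank1, Kank2 and Prickle1. They were picked by gene symbol, and each was found in 1 row of a table of 17995 genes. The libraries came from C18-4, a line of spermatogonial stem cells, and TM4, a line of Sertoli cells, both given the strain IRC in the labels. Each line was stably infected with lentivirus carrying a mixture of short hairpin RNAs against the muscarinic receptor M5 (shM5) or a control hairpin (shNC), so all groups share the lentiviral vector. The labels call the treatments C3NC and CM5 in C18-4 cells and TM3NC and TMM5 in TM4 cells. There were 3 libraries in each of the 4 groups, numbered 1 to 3. Whether the 3 libraries of a group came from separate cultures is not stated, so the p-values measure the spread between libraries, which may be technical.

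In adherent cells, patches of LL5 proteins form at the basal membrane around focal adhesions. There LL5β and its close relative LL5α (Phldb1) recruit the CLASP proteins, which bind and stabilise growing microtubule ends, and ELKS (Erc1), which receives secretory vesicles brought along these microtubules. Liprin-α1 (Ppfia1) and liprin-β1 (Ppfibp1) are scaffolds of the same patches. The KANK proteins bind talin in the adhesion on one side and liprin-β1 on the other, and Prickle1, a planar cell polarity protein, takes part in the disassembly of adhesions. LL5β is also known from the neuromuscular junction, where it is found beneath clusters of acetylcholine receptors. Sertoli cells depend on such cortical microtubules and adhesions for their shape and their contacts with germ cells.

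The promoter of Phldb2 is shown with those of Phldb1, its paralog, and Ppfibp1, the gene whose levels were most like those of Phldb2 among the 10, to let their base composition be compared. The 250 bases before the start of transcription follow, 5′ to 3′ on the gene's own strand, from RefSeq on GRCm38.p6, with each GC box (the letters GGGCGG on either strand) in capitals. They lie at chr16:45844379-45844628 on the minus strand for Phldb2, chr9:44735199-44735448 on the minus strand for Phldb1 and chr6:146888244-146888493 on the plus strand for Ppfibp1.
Phldb2: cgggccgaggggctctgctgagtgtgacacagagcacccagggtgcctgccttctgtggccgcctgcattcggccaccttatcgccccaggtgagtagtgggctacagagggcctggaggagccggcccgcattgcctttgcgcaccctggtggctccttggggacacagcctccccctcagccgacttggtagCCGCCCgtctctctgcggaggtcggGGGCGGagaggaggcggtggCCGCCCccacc
Phldb1: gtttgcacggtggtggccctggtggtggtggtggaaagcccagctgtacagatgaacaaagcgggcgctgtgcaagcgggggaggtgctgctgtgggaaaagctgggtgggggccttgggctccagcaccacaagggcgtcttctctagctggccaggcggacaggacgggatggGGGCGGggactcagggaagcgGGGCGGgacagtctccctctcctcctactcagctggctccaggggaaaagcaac
Ppfibp1: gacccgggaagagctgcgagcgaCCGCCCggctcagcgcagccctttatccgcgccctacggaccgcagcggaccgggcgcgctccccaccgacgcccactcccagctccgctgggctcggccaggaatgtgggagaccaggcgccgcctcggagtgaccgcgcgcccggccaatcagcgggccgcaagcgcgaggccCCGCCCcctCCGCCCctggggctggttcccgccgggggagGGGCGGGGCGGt
Over the whole RefSeq window of 300 bases, which runs a little past the start, the GC content was 71.7% for Phldb2, 66.3% for Phldb1 and 77.3% for Ppfibp1, against a median of 52.7% over 32851 windows. A promoter window was found for 9 of the 10 genes. Of these 9, 8 held a GC box, against 38.2% of all 27025 genes with a window, and the exception was Clasp2. CCAAT was found on either strand for 4 of the 9 (41.1% of all genes). GGAATG, the core letters of TEAD sites, was found for Ppfibp1 (16.6% of all genes). The AP-1 letters TGANTCA were found for 0 of the 9 and in 9.0% of all genes. These are matches of letters and not sites.

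In the GENCODE M21 annotation of GRCm38, Phldb2 spans chr16:45746243-45953598 on the minus strand, so the RefSeq start used above lies inside the gene and is not its outermost start. Phldb1 (chr9:44686304-44735198), Ppfibp1 (chr6:146888487-147032025), Kank1 (chr19:25236975-25434496), Kank2 (chr9:21766784-21798744) and Prickle1 (chr15:93499114-93595891) are the other genes on which the results below turn. The exons of Erc1 overlap the antisense gene Gm44317 over 11.8% of their bases, those of Phldb1 overlap Gm47239 over 1.30% and those of Ppfibp1 overlap Gm44085 over 1.02%, each on the other strand. Strand was not stated for the counting, so the values of these 3 genes may hold reads of their partners. No exon overlap was found for Phldb2.

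All levels are RPKM, read numbers scaled for gene length and library size by the authors, as deposited. RPKM hold no read numbers, and the depth is unknown. The value of 1 read was read off the smallest steps that 164 low genes made. It was nearly equal in the 12 libraries (0.980 to 1.013 relative to their median). Genes were kept for this only where all non-zero values lay within 10% of whole multiples of a shared step. That choice favours equal steps, so the relative depth of the libraries remains unknown. Chrm5, the gene of the targeted receptor, was listed at 0 in 10 libraries and at 0.01 in C18-4 shNC replicate 2 and TM4 shNC replicate 1, so the knockdown could not be checked from these values. Of the other muscarinic receptor genes, Chrm1 was at 0.52, 0.68 and 0.72 in C18-4 shNC and at 0.18, 0.12 and 0.29 in C18-4 shM5, below the level set for testing. Chrm3 and Chrm4 did not exceed 0.32 in any library.

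The line labels did not match all of their markers. In C18-4 cells, 2 of 9 spermatogonial markers had a mean of at least 1 RPKM in either group (Id4 and Etv5), Kit was listed at 0 and Ret, Zbtb16, Dazl and Ddx4 did not exceed 0.05. The Sertoli cell marker Wt1 was at 53.9 to 72.3 RPKM in C18-4 cells and at 0.15 or less in TM4 cells, where Sox9 was at 1.11 to 1.74 and Amh at 0.19 or less. The lines are therefore named here by their labels only. In TM4 cells, 1 control library stood apart. The library labelled shNC replicate 3 differed from shNC replicates 1 and 2 by 0.640 and 0.642 (root mean square of the log2 differences over genes) and from the 3 shM5 libraries by 0.202 to 0.257, while shNC replicates 1 and 2 differed by 0.189. In C18-4 cells both libraries numbered 3 lay apart from those numbered 1 and 2. The differences of the 10 genes are therefore given with and without these libraries.

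Phldb2 was the second most abundant of the 10 genes after Ppfibp1, and its mean level was highest in C18-4 shNC, followed by C18-4 shM5, TM4 shNC and TM4 shM5. In C18-4 shNC it was at 78.19, 79.74 and 83.41 RPKM, in C18-4 shM5 at 49.43, 52.36 and 62.99, in TM4 shNC at 50.25, 51.37 and 29.94, and in TM4 shM5 at 25.77, 25.34 and 29.11. In both lines every shM5 library was below every shNC library, but in TM4 cells the gap between shNC replicate 3 (29.94) and shM5 replicate 3 (29.11) was under 1 RPKM. C18-4 shM5 and TM4 shNC, neighbours in this order, overlapped. The means were 80.4 ± 2.68, 54.9 ± 7.14, 43.9 ± 12.1 and 26.7 ± 2.06 (SD, n = 3 each). The authors singled out Phldb2 from these same libraries, so its direction here is not independent evidence. By immunofluorescence staining the paper also reports less PHLDB2 protein with shM5 in both lines, which these RNA values do not measure. Averages over bulk cells cannot tell fewer cells with a transcript from less of it per cell.

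**Figure D1:**
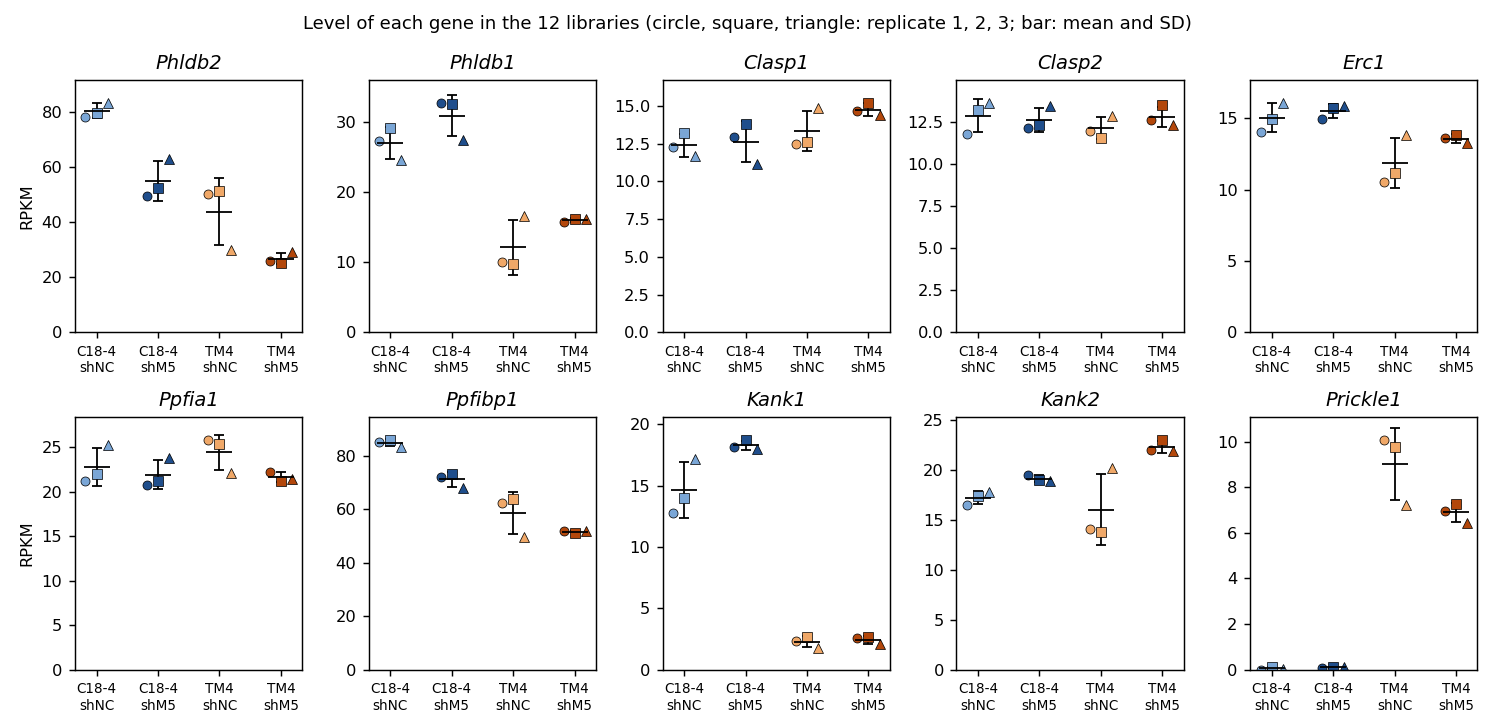
RPKM of each of the 10 genes (vertical axes, starting at 0) in the 4 groups (horizontal axis), with 1 point per library and a bar for the mean and SD (n = 3). The point for TM4 shNC replicate 3 (triangle) sits at the level of the TM4 shM5 libraries for Phldb2 (29.94), Phldb1 (16.66) and Ppfibp1 (49.56), while Kank1 and Prickle1 separate the lines.

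The first comparison asked which of the 10 genes differed between shM5 and shNC in C18-4 cells. Phldb2 and Ppfibp1 were lower and Kank1 and Kank2 were higher in every shM5 library than in every shNC library, while the groups overlapped for Phldb1, Clasp1, Clasp2, Erc1 and Ppfia1. Differences were tested with limma on log2(RPKM + 0.1), over the 11611 genes whose mean reached 0.5 RPKM, and a gene was called at an adjusted p (Benjamini-Hochberg) below 0.05. Of the 10 genes 9 passed this filter, and the exception was Prickle1, at 0.01 to 0.14 RPKM. Without regard to replicate number, 0 of the 9 were called, against 0.586% of all genes, and 3 had an unadjusted p below 0.05, against 12.3% of all genes. The libraries of C18-4 cells with the same number deviated together, which was taken as pairing. The pairing was read from these same values and not from the labels, and the numbers mainly set replicate 3 apart from the others. With the replicate number as a block 3 of the 9 were called, against 11.9% of all genes. The groups did not overlap for 4 of the 9, against 18.9% of all genes.

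For Phldb2 in C18-4 cells the difference was -0.56 (SE 0.0996) on the log2 scale, with an adjusted p of 0.0768 in limma, and 0.00251 with the block. Within each number the level was lower with shM5, at 49.43 against 78.19, 52.36 against 79.74, and 62.99 against 83.41 RPKM. The difference was smallest in the libraries numbered 3, where both groups had their highest Phldb2. Phldb2 was called with median centring (-0.56, adjusted p = 0.0460, where 0.629% of all genes were). Leaving out shM5 replicate 3 gave -0.66 (adjusted p = 0.0410, where 0.267% of all genes were called), leaving out both libraries numbered 3 gave -0.63 (adjusted p = 2.16e-05), and leaving out shM5 replicate 1 gave -0.48.

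Ppfibp1, the liprin-β1 scaffold that joins KANK proteins to the LL5 patches, was at 85.10, 85.81 and 83.26 RPKM in C18-4 shNC and at 72.12, 73.16 and 68.03 in C18-4 shM5. Its difference was -0.25 (SE 0.0627), with an adjusted p of 0.166 in limma and 0.0133 with the block. The lowest control library was thus well above the highest shM5 library, and with the block Ppfibp1 fell together with Phldb2. Ppfia1, which encodes the other liprin of the set, was at 21.22, 22.01 and 25.23 in shNC and at 20.78, 21.17 and 23.83 in shM5. Its groups overlapped, and its difference was -0.06 with a 95% interval of -0.29 to 0.17.

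The KANK genes pointed the other way. Kank1 was at 12.76, 13.97 and 17.16 RPKM in C18-4 shNC and at 18.13, 18.73 and 18.04 in C18-4 shM5, a difference of 0.33 (SE 0.117), with an adjusted p of 0.315 in limma and 0.0498 with the block. The spread lay in the controls, where replicate 3 was near the shM5 libraries, and without shNC replicate 3 the difference was 0.45 (adjusted p = 0.0478, where 2.04% of all genes were called). Kank2 was at 16.51, 17.38 and 17.79 in shNC and at 19.55, 19.03 and 18.92 in shM5, a difference of 0.15 (SE 0.0731) that was called neither way (adjusted p = 0.475, and 0.141 with the block).

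Phldb1, the paralog of Phldb2, was at 27.36, 29.14 and 24.61 RPKM in C18-4 shNC and at 32.75, 32.52 and 27.48 in C18-4 shM5. Within each number it was higher with shM5, but the groups overlapped, and the difference of 0.19 (SE 0.103) had an adjusted p of 0.534, and 0.0573 with the block. The ratio of Phldb2 to Phldb1 was 2.86, 2.74 and 3.39 in shNC and 1.51, 1.61 and 2.29 in shM5. All 3 ratios were lower with shM5, and the two-sided exact permutation test gave p = 0.1, the smallest that 3 against 3 libraries allow. Without both libraries numbered 3, Phldb1 (0.21, adjusted p = 0.0146) and Kank2 (0.19, adjusted p = 0.0377) were called in addition to Phldb2, Ppfibp1 and Kank1, so that 5 of the 9 were called against 26.1% of all genes.

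The CLASP and ELKS genes gave no call in C18-4 cells under any of these settings. Clasp1, at 11.71 to 13.20 RPKM in shNC and 11.13 to 13.79 in shM5, differed by 0.02 (95% interval -0.23 to 0.27). Clasp2, at 11.75 to 13.63 and 12.11 to 13.43, differed by -0.03 (95% interval -0.25 to 0.20). Erc1, at 14.06 to 16.08 and 14.96 to 15.86, differed by 0.05 (95% interval -0.15 to 0.25). The groups overlapped for all 3 genes, and the intervals allow changes of up to about the size measured for Ppfibp1. Without both libraries numbered 3 the differences were 0.07 for Clasp1, -0.03 for Clasp2, 0.08 for Erc1 and -0.04 for Ppfia1, and none of these 4 was called.

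Some markers of contractile and connective tissue cells moved with shM5 in C18-4 cells. The summed level of 5 peritubular myoid markers was 61.9 to 77.9 RPKM in shNC and 113.4 to 158.1 in shM5, through Acta2 and Tagln, the actin and the actin-binding protein of smooth muscle, while the defining marker Myh11 did not exceed 0.07. Of the 4 tested, 0 were called (0.586% of all genes were) and 2 did not overlap (18.9% of all genes), and both (Acta2 and Tagln) were called with the block (11.9% of all genes). Cnn1 (mean 3.33 in shNC and 3.42 in shM5) and Des (5.26 and 4.99) overlapped. The sum of 6 fibroblast markers was 475.8 to 545.5 in shNC and 568.0 to 641.9 in shM5. Thy1 did not exceed 0.15 and Col1a2 did not exceed 0.19. Of the 4 tested, 1 was called by limma, Col3a1 (0.59, adjusted p = 0.0367), against 0.586% of all genes. Col3a1 was also the only 1 of the 4 without overlap, against 18.9% of all genes. On average 3 of the 4 were higher with shM5, and Pdgfra was lower (mean 1.33 in shNC and 0.89 in shM5). The 6 Leydig cell markers summed to 1.58 RPKM or less and the 4 macrophage markers to 4.28 or less in every library. The part of the contractile and connective tissue markers in the differences of the 10 genes was not tested.

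In TM4 cells the same comparison depended on which control libraries were used. Phldb2 was lower and Kank2 higher in every shM5 library than in every shNC library, 2 of 10 genes without overlap, against 26.8% of all genes. All 10 genes passed the filter, and 0 of 10 were called by limma, against 0 of 11016 genes tested, while 3 had an unadjusted p below 0.05, against 26.0% of all genes. Without shNC replicate 3, 8 of the 10 were called, against 67.4% of all genes, and without both libraries numbered 3, 9 of the 10 were, against 72.6%. With shNC replicate 3 as the only control, 0 of the 10 were called, against 0 of all 11016 genes.

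For Phldb2 in TM4 cells the difference was -0.67 (SE 0.216, adjusted p = 0.192). Without shNC replicate 3 it was -0.93 (SE 0.0662, adjusted p = 1.45e-05), and with that library as the only control it was -0.17 (SE 0.0950, adjusted p = 0.910), the lone library being assumed to vary like the others. The size of the difference thus depended on which control libraries were used. Its direction could not differ between the 3 settings, since every shM5 library was below every control library.

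**Figure D2:**
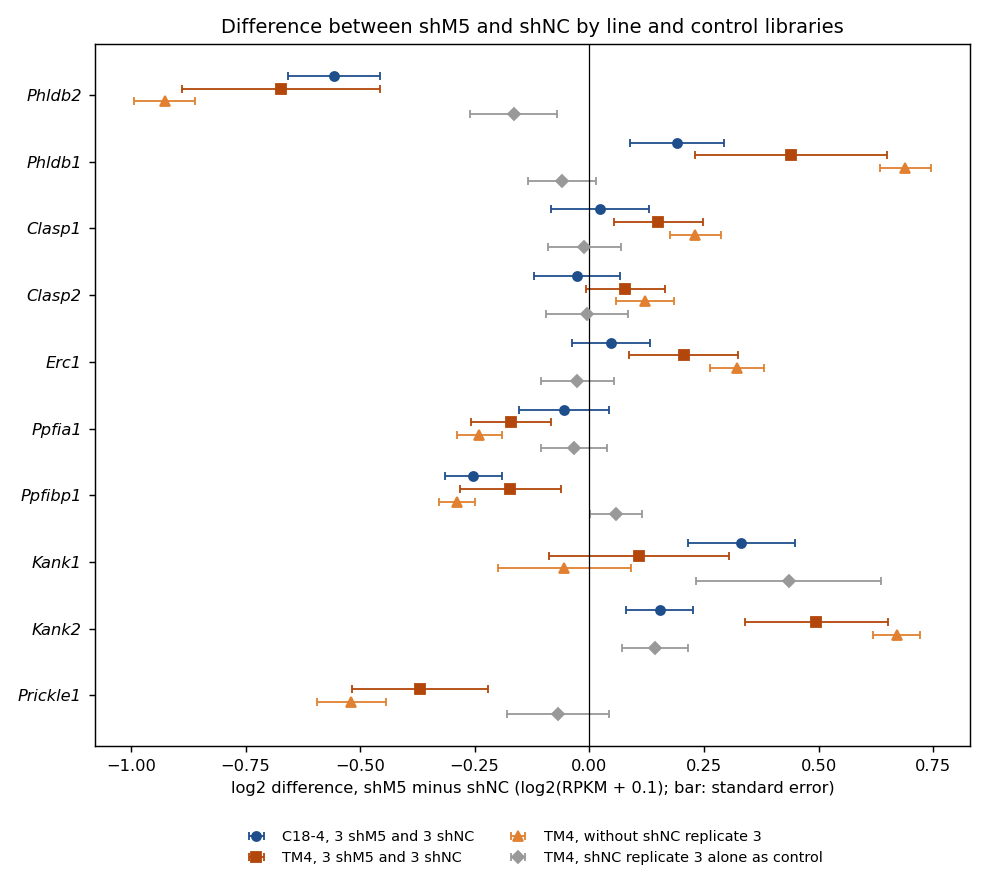
Difference between shM5 and shNC on the scale of log2(RPKM + 0.1) (horizontal axis) for each gene (vertical axis), in C18-4 cells, in TM4 cells, in TM4 cells without shNC replicate 3 and in TM4 cells with that library as the only control, with bars for the standard error of the fit. For Phldb2 the 4 values are -0.56, -0.67, -0.93 and -0.17, and for Phldb1 the last is on the other side of 0 from the first 3.

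Phldb1 was at 10.06, 9.69 and 16.66 RPKM in TM4 shNC and at 15.67, 16.12 and 16.16 in TM4 shM5. Of the control libraries 2 lay well below the shM5 libraries and shNC replicate 3 lay above all of them. The difference was 0.44 (SE 0.210, adjusted p = 0.203), without shNC replicate 3 it was 0.69 (adjusted p = 2.58e-05), and with that library alone it was -0.06. The ratio of Phldb2 to Phldb1 was 4.995 and 5.301 in shNC replicates 1 and 2 and 1.80 in shNC replicate 3, against 1.64, 1.57 and 1.80 with shM5 (two-sided exact permutation p = 0.2, where 0.1 is the smallest possible).

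Kank2 was at 14.16, 13.81 and 20.19 RPKM in TM4 shNC and at 22.04, 23.03 and 21.90 in TM4 shM5. It was the only gene of the 10 other than Phldb2 without overlap in TM4 cells, with a difference of 0.50 (SE 0.156, adjusted p = 0.192), 0.67 without shNC replicate 3 (adjusted p = 2.14e-05) and 0.14 with that library alone. Kank1, at 2.38, 2.68 and 1.77 in shNC and 2.60, 2.67 and 2.06 in shM5, overlapped, and its difference of 0.11 (SE 0.196) changed sign without shNC replicate 3 (-0.05).

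Prickle1 was at 10.07, 9.77 and 7.23 RPKM in TM4 shNC and at 6.98, 7.28 and 6.44 in TM4 shM5. Its groups overlapped by a narrow margin, through shNC replicate 3. The difference was -0.37 (SE 0.148, adjusted p = 0.192), and without that library it was -0.52 (adjusted p = 0.000570). Ppfibp1 was at 62.26, 63.82 and 49.56 in shNC and at 51.87, 51.27 and 51.71 in shM5, and its difference of -0.17 became -0.29 without shNC replicate 3 (adjusted p = 0.000392) and 0.06 with that library alone.

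Ppfia1 was at 22.17 to 25.82 RPKM in TM4 shNC and 21.23 to 22.28 in TM4 shM5 (-0.17, and -0.24 without shNC replicate 3, adjusted p = 0.00304). Erc1 was at 10.54 to 13.82 and 13.25 to 13.84 (0.21, and 0.32 without that library, adjusted p = 0.00178), and Clasp1 at 12.48 to 14.86 and 14.39 to 15.21 (0.15, and 0.23, adjusted p = 0.00697). Clasp2, at 11.55 to 12.84 and 12.30 to 13.47, was not called with or without it (0.08, and 0.12, adjusted p = 0.125). For Phldb1, Clasp1, Clasp2, Erc1 and Ppfibp1 the sign turned when shNC replicate 3 was the only control.

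Genes of the integrated stress response, which cells switch on when amino acids or protein folding fail, followed the same libraries. The summed level of 9 of them (Ddit3, Trib3, Chac1, Asns, Atf3, Atf4, Sesn2, Psat1 and Phgdh) was 2293 and 2285 RPKM in TM4 shNC replicates 1 and 2, 1161 in shNC replicate 3, and 1088 to 1124 in TM4 shM5. All 9 were lower with shM5 on average in TM4 cells, where limma called 0 of them (0 of all 11016 genes) and 8 had an unadjusted p below 0.05 (26.0% of all genes). The 2 libraries with the highest stress sums had the highest Phldb2 and the lowest Phldb1 of TM4 cells. In C18-4 cells, where 6 of the 9 were lower with shM5 on average and 0 were called or had an unadjusted p below 0.05, the sum was 1091, 1081 and 1570 in shNC and 1037, 1038 and 1510 in shM5, so that the libraries numbered 3 were far above the others, and within each number the sum was a little lower with shM5. With the block 1 of the 9 was called, Atf3, which was higher with shM5 (0.48, adjusted p = 0.00557). In C18-4 cells too, replicate 3 of each group had the highest Phldb2 and the lowest Phldb1. The part of the stress genes in these results was not tested. In TM4 cells some markers of contractile and connective tissue cells were also split by library. Acta2 was at 66.39 and 63.29 in shNC replicates 1 and 2, 139.83 in shNC replicate 3 and 141.73 to 193.88 in shM5. Des (0.38 to 0.53 in both groups) and Dcn (796.68 to 820.16 in shNC and 565.26 to 854.25 in shM5) did not split in this way. The 5 myoid markers summed to 122.01 to 250.02 RPKM in TM4 shNC and 230.8 to 350.4 in TM4 shM5, with Myh11 at 0.01 or less, and the 6 fibroblast markers to 1319 to 1615 and 1352 to 1887, with Thy1 listed at 0. Their part was not tested.

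**Figure D3:**
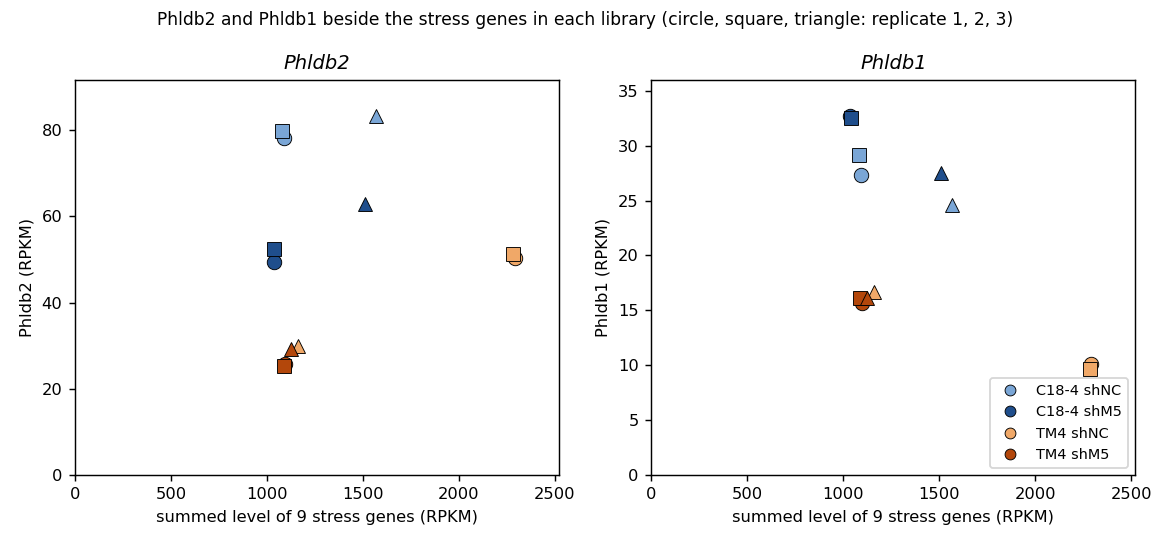
RPKM of Phldb2 (left) and Phldb1 (right) on the vertical axes against the summed RPKM of 9 stress genes on the horizontal axes, with 1 point per library, coloured by group and shaped by replicate number. TM4 shNC replicates 1 and 2 lie alone at the right (2293 and 2285), and TM4 shNC replicate 3 lies with the shM5 libraries. In C18-4 cells both triangles (1570 and 1510) lie to the right of their groups.

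The interaction of hairpin and line over all 12 libraries asked whether the lines responded to shM5 differently. Of the 10 genes 0 were called by limma, against 0.102% of 11773 genes, and 0 had an unadjusted p below 0.05, against 20.9% of all genes. For Phldb2 the C18-4 difference minus the TM4 difference was 0.12 (SE 0.251, 95% interval -0.44 to 0.67, adjusted p = 0.792), a wide interval that shows neither a difference nor like responses. Without TM4 shNC replicate 3, 3 of the 10 were called, against 38.1% of all genes: Phldb2 (0.37, adjusted p = 0.0497), Phldb1 (-0.50, adjusted p = 0.0109) and Kank2 (-0.52, adjusted p = 0.00107). In each of these the TM4 difference was then the larger. Without the 4 libraries numbered 3, 6 of the 10 were called, against 59.7% of all genes.

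The genes that work beside the 10 were read from lists of other family members, plus-end and cortical capture, adhesion link, vesicle docking and postsynaptic receptor clustering. In C18-4 cells 0 of 59 genes tested were called by limma, against 0.586% of all genes, and with the block 11 were, against 11.9%. An unadjusted p below 0.05, given below for each list, was found for 12.3% of all genes. Of the other family members, 1 of 8 had an unadjusted p below 0.05 and the median difference was -0.13, against -0.0024 over all genes. Among them Erc2, the paralog of Erc1, was at 2.0, 2.07 and 2.34 RPKM in shNC and at 1.31, 1.06 and 1.71 in shM5 (-0.64, adjusted p = 0.261, and 0.0329 with the block). Every shM5 library was below every control.

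The adhesion list holds genes of focal adhesions, of their links to actin and of liprin-binding receptors. Of its 16 genes 12 were higher with shM5 on average (49.4% of all genes were), with a median of 0.07, and 5 had an unadjusted p below 0.05, against 12.3% of all genes. Groups did not overlap for 7 genes higher and 1 lower with shM5, against 18.9% of all genes in either direction. With the block 5 genes of the list rose and 0 fell, against 11.9% of all genes called in either direction. Those that rose included Itgb1, the β1 integrin chain, Tln1, the talin that KANK proteins bind, and Flna and Flnc, which crosslink actin. Itgb1 was at 269.36, 269.63 and 273.02 RPKM in shNC and at 323.58, 326.13 and 311.06 in shM5 (0.24, adjusted p = 0.159, and 0.0119 with the block). Tln1 was at 63.52, 67.88 and 71.97 in shNC and at 78.58, 84.81 and 78.97 in shM5 (0.25, adjusted p = 0.232, and 0.0238 with the block). For both genes the groups did not overlap, as for Kank1 and Kank2.

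The capture list, which holds proteins of growing microtubule ends and their cortical receptors, had 19 genes tested in C18-4 cells, 3 with an unadjusted p below 0.05, and a median of -0.03. With the block Mapre1, Mapre2 and Iqgap1 rose and Clip2 fell. Mapre2, an end-binding protein, was at 27.73, 29.01 and 32.94 in shNC and at 36.55, 36.82 and 36.56 in shM5. Of 13 vesicle docking genes 2 had an unadjusted p below 0.05. Among them Rab8a, the small GTPase of secretory vesicles that ELKS receives, was at 42.33, 40.57 and 43.10 in shNC and at 57.70, 55.46 and 54.63 in shM5 (0.41, adjusted p = 0.0537, and 0.00346 with the block). No control library came near the shM5 libraries for Rab8a, which had the smallest adjusted p of the 5 lists. Of the 3 postsynaptic genes tested (Agrn, Lrp4 and Dag1) 0 were called with or without the block, and 0 had an unadjusted p below 0.05. Without shNC replicate 3, 4 genes of the lists were called, all higher, against 2.04% of all genes: Mapre2, Rab6b, Rab8a and Agrn.

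**Figure D4:**
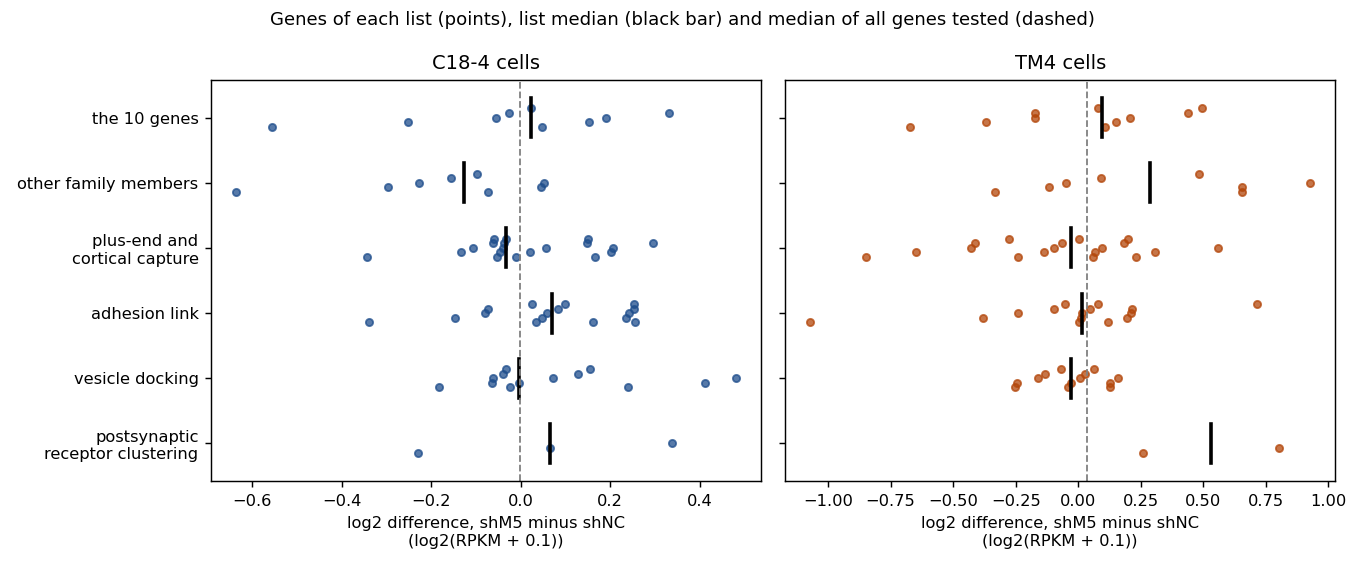
Difference between shM5 and shNC on the scale of log2(RPKM + 0.1) (horizontal axes) for the genes of each list (points, with a small vertical offset for legibility), in C18-4 cells (left) and TM4 cells (right). Black bars mark list medians and dashed lines the median of all genes tested (-0.0024 and 0.036). Scales differ between the panels.

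In TM4 cells 0 of 56 genes of these lists were called by limma with or without the block, and 36 were called without shNC replicate 3, where 67.4% of all genes were. An unadjusted p below 0.05 was found for 2 of 8 other family members, 5 of 18 capture genes, 4 of 15 adhesion genes, 0 of 13 docking genes and 1 of 2 postsynaptic genes, against 26.0% of all genes, a share near that of the first 3 lists. Groups did not overlap for 6 of the 18 capture genes, against 26.8% of all genes in either direction. All 6 were lower with shM5 (Clip1, Apc, Dst, Gsk3b, Kif21b and Map1b), where 11.1% of all genes were lower without overlap. Some gaps were narrow, with Map1b at 24.75 in the lowest control and 24.31 in the highest shM5 library, and Apc at 7.98 and 7.95. For all of them but Apc the lowest control was shNC replicate 3. Clip2, another capture gene, shows how the control libraries split. It was at 11.34, 11.45 and 20.79 RPKM in TM4 shNC and at 20.03, 21.76 and 19.87 in TM4 shM5, and in C18-4 cells at 6.29, 6.93 and 7.99 in shNC and 5.16, 5.37 and 6.09 in shM5. In C18-4 cells every shM5 library was thus below every control for Clip2 (-0.34, adjusted p = 0.339 in limma, and 0.0305 with the block). In TM4 cells Clip2 was higher with shM5 against shNC replicates 1 and 2. Over all TM4 controls its groups overlapped and limma did not call it (0.56, adjusted p = 0.192).

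Between the lines most genes tested differed, and so did most of the 10. The paper grew C18-4 cells in DMEM/F12 with added L-glutamine and TM4 cells in DMEM. Line and culture medium therefore cannot be told apart in this comparison. C18-4 cells were compared with TM4 cells over both hairpins, and 6 of the 10 were called by limma, against 73.0% of 11773 genes. The groups did not overlap for 5 of the 10, against 52.8% of all genes. Kank1, Phldb1, Phldb2, Ppfibp1 and Erc1 were higher in C18-4 cells, and Prickle1 was lower. Median centring moved every difference by 0.112, and with it Erc1 was no longer called (0.16, adjusted p = 0.0540) while Clasp1 (-0.28, adjusted p = 0.0117) and Ppfia1 (-0.15, adjusted p = 0.0296) were, 7 of the 10 against 72.7% of all genes. At the study's threshold, an adjusted p of at most 0.001 and a log2 ratio of at least 1, 3 of the 10 were called (Kank1, Phldb1 and Prickle1), against 26.3% of all genes. Without TM4 shNC replicate 3, 6 of the 10 were called, against 79.1% of all genes, with Kank1 at 2.67, Phldb1 at 1.19, Phldb2 at 0.85, Ppfibp1 at 0.44, Erc1 at 0.33 and Prickle1 at -5.60.

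Prickle1 and Kank1 set the lines apart. Prickle1 was at 0.01 to 0.14 RPKM in the 6 C18-4 libraries and at 6.44 to 10.07 in the 6 TM4 libraries. The fitted difference of -5.52 depends on the pseudocount, with -3.04 at a pseudocount of 1 and -6.77 at 0.01. Kank1 was at 12.76 to 18.73 in C18-4 cells and at 1.77 to 2.68 in TM4 cells, a difference of 2.75 (SE 0.116, adjusted p = 8.48e-10). Kank2 was at 16.51 to 19.55 and 13.81 to 23.03, a difference of -0.05 (95% interval -0.24 to 0.15), so the KANK genes were at like levels in C18-4 cells (Kank1 over Kank2 0.847 ± 0.103 in shNC, SD, n = 3) and far apart in TM4 cells (0.150 ± 0.0555).

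Both LL5 genes were higher in C18-4 cells, Phldb1 by 1.067 (SE 0.123, adjusted p = 9.45e-06) without overlap and Phldb2 by 0.97 (SE 0.126, adjusted p = 2.44e-05) with overlap, since TM4 shNC replicates 1 and 2 were above C18-4 shM5 replicate 1. Ppfibp1 was higher by 0.50 (SE 0.0631, adjusted p = 1.97e-05) and Erc1 by 0.27 (SE 0.0740, adjusted p = 0.00603). Clasp1 (-0.16, adjusted p = 0.0638), Clasp2 (0.03, 95% interval -0.11 to 0.17) and Ppfia1 (-0.04, 95% interval -0.19 to 0.10) were not called. Clasp2 was the most even of the 10 genes, at 11.55 to 13.63 RPKM over the 12 libraries.

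**Figure D5:**
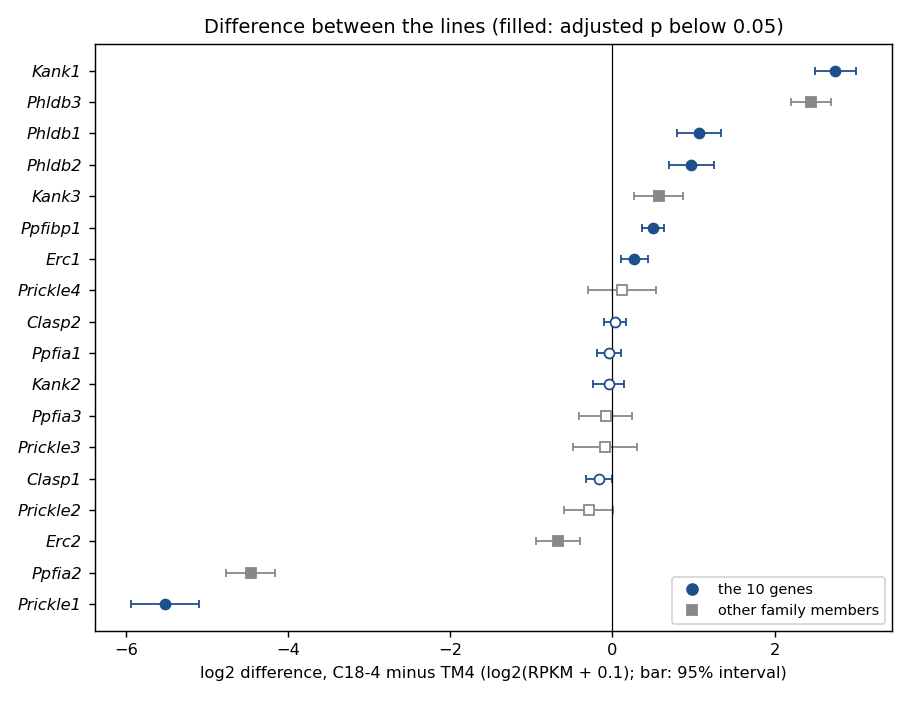
Difference between C18-4 and TM4 cells on the scale of log2(RPKM + 0.1) (horizontal axis) for the 10 genes and for their family members that passed the filter (vertical axis), with 95% intervals from the fit. Kank1 (2.75) and Phldb3 (2.45) lie at the right end and Prickle1 (-5.52) and Ppfia2 at the left, while Clasp2, Ppfia1 and Kank2 straddle 0.

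Of the other family members, 2 were higher and 2 lower in C18-4 cells of 8 tested, against 73.0% of all genes called in either direction. Phldb3, the third gene of the Phldb family, was at 3.34 to 4.57 RPKM in C18-4 cells and 0.57 to 0.83 in TM4 cells (2.45, adjusted p = 1.94e-09), so all 3 Phldb genes were higher in C18-4 cells. Ppfia2, another liprin-α gene, was at 0.06 or less in C18-4 cells and at 2.01 to 3.01 in TM4 cells. Kank3 was higher (0.57, adjusted p = 0.00253) and Erc2 lower (-0.68, adjusted p = 0.000394).

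The counts of the other lists are likewise to be read against the 73.0% of all genes called between the lines. Of 19 capture genes 9 were higher in C18-4 cells and 7 lower, with a median of 0.23 against 0.14 over all genes. Slain1, which promotes microtubule growth, was at 3.13 to 4.53 RPKM in C18-4 cells and at 0.07 or less in TM4 cells, while Clip2 (-1.42) and Diaph1 (-1.03), a formin, were lower in C18-4 cells. Of 16 adhesion genes 4 were higher and 8 lower, with a median of -0.11. Ptprd, a receptor phosphatase bound by liprins, was at 7.67 to 9.89 in C18-4 cells and listed at 0 in all TM4 libraries, and Tln2 (-1.68) and Flna (-1.28) were lower in C18-4 cells. Of 13 docking genes 8 were higher, led by Exoc6 (1.51), Exoc7 (1.15) and Rab8b (1.08), and 3 were lower, against 73.0% of all genes called. All 3 postsynaptic genes tested were higher, with Dag1, the dystroglycan gene, at 0.97 (adjusted p = 0.000474).

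The genes whose levels ran most like those of Phldb2 were found from the root mean square difference of log2 profiles, centred on their means over the 12 libraries, among the 8768 genes whose mean reached 5 RPKM. They were Zfp932 (0.163), Nudt8 (0.178), Kctd6 (0.194), Kif5b (0.201) and Dtd2 (0.208), against a median of 0.653. Kif5b, the heavy chain of kinesin-1, a motor that carries cargo towards microtubule plus ends, was at 96.64, 102.91 and 125.49 RPKM in C18-4 shNC and at 92.25, 92.52 and 106.06 in C18-4 shM5. In TM4 cells it was at 73.81, 77.53 and 54.62 in shNC and at 46.63, 46.89 and 53.56 in shM5, so its shNC replicate 3 also lay next to the shM5 libraries. Ppfibp1 ranked 296 (0.346), the nearest of the 10 genes, while Phldb1 ranked 3714 (0.614) and Kank1 ranked 7643 (0.999). The libraries share the split in TM4 controls, which enters every such profile.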

How the data were processed

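All 12 libraries, 3 of each hairpin in each line, were used, with groups taken from the sample labels and each column of values matched to 1 library by its name. The authors enriched poly(A) RNA, aligned reads to reference genes with SOAPaligner and deposited RPKM with 2 decimals for 17995 genes. The genome build and annotation are not given in the sources used here. RPKM were not counts, so limma (version 3.58.1, R 4.3.3) was run on log2(RPKM + 0.1) with a mean-variance trend, over genes whose mean in the libraries compared reached 0.5 RPKM, with Benjamini-Hochberg adjustment over all genes tested and a threshold of 0.05. Differences are on this log2 scale, which understates changes of low genes. The alternatives were pseudocounts of 1 and 0.01, no filter, no trend, median centring, the replicate number as a block, the study's threshold (adjusted p of at most 0.001 and a log2 ratio of at least 1), 1 fit of all 12 libraries and leaving out libraries. The code was tested on simulated data. Of simulated log2 changes of 0.5, 25% were called in C18-4 cells and 11% in TM4 cells. Of changes of 1, 62% and 48% were called, so the absence of a call does not show the absence of a change.

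Replicate numbers were taken to pair the C18-4 libraries, since same-numbered libraries deviated together from their group means (correlations 0.439, 0.409 and 0.631 across genes), and not the TM4 libraries (0.0729, 0.0489 and 0.127). In C18-4 cells the crossed pairs of numbers 1 and 2 gave 0.341 and 0.345 and those with number 3 gave -0.514 to -0.467, so the numbers mainly set 3 apart from 1 and 2. The pairing comes from the values and not from the labels. The 10 genes and all lists were chosen with earlier results of these data known. Named were the 10 genes, the muscarinic receptor genes, up to 3 called genes of each list with the largest difference in a comparison, and the 5 genes with profiles most like that of Phldb2. Further genes were picked with their values in view. Promoters were read from RefSeq windows and gene spans from GENCODE M21 (Python 3.11.15). Of the adhesion list, 1 gene is counted and not named here.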

Additional observations from a re-analysis of the deposited data

How the results depend on the processing

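The number of the 9 genes called in C18-4 cells, 0 as reported, was 1 with median centring (Phldb2, -0.56, adjusted p = 0.0460), 3 with the replicate block (Phldb2 -0.56, adjusted p = 0.00251), 5 without both libraries numbered 3 (Phldb2 -0.63) and 0 to 1 when 1 library was left out (without shNC replicate 3, Kank1; without shM5 replicate 3, Phldb2). Phldb2 then ran from -0.66 to -0.48. In TM4 cells the number, 0 as reported, was 9 without both libraries numbered 3 (Phldb2 -0.99) and 0 to 8 when 1 library was left out (8 without shNC replicate 3), and Phldb2 ran from -0.93 to -0.54. For the difference between lines, 0 as reported, it was 6 without the 4 libraries numbered 3 (Phldb2 0.36, against 59.7% of all genes called) and 0 to 3 with 1 library left out, and Phldb2 ran from -0.0192 to 0.369, below 0 without TM4 shNC replicate 1 or 2. Between the lines, 6 as reported, 3 were called at the study's threshold, where Phldb2 (0.97) missed the ratio of 1. Of the partner genes, 0 as reported in C18-4 cells, 11 were called with the replicate block, and with 1 library left out, chosen after the data were seen, 0 to 4 in C18-4 cells and 0 to 36 in TM4 cells.

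Signs turned for small differences. In C18-4 cells, with 1 library left out, Clasp1 ran from -0.0441 to 0.109, Clasp2 from -0.0902 to 0.0160 and Ppfia1 from -0.117 to 0.0181. In TM4 cells Kank1 ran from -0.0548 to 0.231, and with shNC replicate 3 as the only control Phldb1 was -0.0596, Clasp1 -0.0114, Clasp2 -0.00551, Erc1 -0.0267 and Ppfibp1 0.0585. In the difference between lines Ppfibp1 ran from -0.147 to 0.0347 with 1 library left out and was 0.0550 without the 4 libraries numbered 3. Between the lines Clasp2 was -0.0805 with median centring and -0.0211 in shM5 libraries only, Ppfia1 was 0.0150 in shM5 libraries only, and Kank2 was 0.123 in shNC libraries only and ran from -0.0964 to 0.0398 with 1 library left out. The cause was not tested. In TM4 cells the numbers did not pair the libraries, and the replicate block left 0 of the 10 genes called, with an adjusted p of 0.211 for Phldb2. Beyond Phldb2, Ppfibp1, Kank1 and the 11 partner genes in C18-4 cells, it changed no call of the 10 genes. RPKM give no read numbers, so counting error could not be set apart from the spread between libraries.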
